A study of Mus musculus with 2 samples.

Results

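The Hox genes encode homeodomain transcription factors that give cells their position along the head-to-tail axis. All 39 mouse Hox genes were found in the deposited table, taken as every gene name made of Hox, a cluster letter from a to d and a number, among 30649 gene names. They carry 49 of its 55350 rows, and antisense names were not included. The Taf7l KO group was interscapular brown adipose tissue (BAT) of mice lacking Taf7l, and the WT group was the same tissue of wild-type mice. The background is C57BL/6 in the labels of both groups, and the study's methods give C57BL/6J for the KO line. Both were given as 1 month old in one label, while another label gives 3 months for the KO, so a difference in age cannot be told apart from genotype. RNA of 6 mice per genotype was pooled into 1 mRNA-seq library. Differences between the genotypes therefore carry no error between pools, and neither a p-value nor an SD can be had. Levels are FPKM, fragments counted per kilobase of a transcript and divided by the size of the library, summed over the rows of a gene.

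Mammalian Hox genes lie in 4 clusters, and members of equal number in different clusters (a paralog group) derive from 1 ancestral gene. Low numbers are used toward the head, in the hindbrain and neck, and high numbers toward the tail and in the ends of the limbs, and the order of the genes on the chromosome follows the order of their domains in the body. Many adult tissues of mesodermal origin, fat and muscle among them, keep a Hox pattern that reflects where in the embryo they arose. On GRCm38 the Hoxa cluster lies on chromosome 6 (52162417 to 52260880 from Hoxa2 to Hoxa13, minus strand). The other clusters are on the plus strand, with Hoxb on chromosome 11 (96194316 to 96368256), Hoxc on chromosome 15 (102921103 to 103036852) and Hoxd on chromosome 2 (74668310 to 74765142).

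TAF7L is a subunit of TFIID, the complex that recognises core promoters, so 3 Hox promoters are shown. They are the gene with the highest WT level (Hoxa5), a gene at 1.95 times the WT level in KO (Hoxa7) and a gene listed at 0 in both libraries (Hoxa13). Each is the stretch of 250 bases before the RefSeq start on GRCm38.p6, on the minus strand of chromosome 6, at chr6:52204588-52204837, chr6:52218574-52218823 and chr6:52260881-52261130. Capitals mark the letters TAAT, the core that homeodomain proteins recognise, on either strand.
Hoxa5: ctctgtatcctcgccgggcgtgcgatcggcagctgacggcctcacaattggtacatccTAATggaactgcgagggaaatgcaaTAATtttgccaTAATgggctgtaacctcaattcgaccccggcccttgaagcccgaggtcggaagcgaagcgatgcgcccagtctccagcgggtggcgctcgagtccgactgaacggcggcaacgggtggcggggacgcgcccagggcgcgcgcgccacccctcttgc
Hoxa7: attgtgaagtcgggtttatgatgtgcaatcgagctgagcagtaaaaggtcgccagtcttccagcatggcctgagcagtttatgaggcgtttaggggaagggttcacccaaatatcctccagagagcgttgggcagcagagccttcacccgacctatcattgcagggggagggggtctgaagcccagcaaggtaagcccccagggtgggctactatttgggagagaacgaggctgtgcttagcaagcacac
Hoxa13: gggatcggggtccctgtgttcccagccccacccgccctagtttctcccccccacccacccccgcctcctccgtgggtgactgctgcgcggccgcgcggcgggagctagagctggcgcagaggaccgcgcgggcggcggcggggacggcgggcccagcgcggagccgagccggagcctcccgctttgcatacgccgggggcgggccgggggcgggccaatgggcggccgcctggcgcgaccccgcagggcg
The Hoxa5 promoter holds 3 such matches, and the other 2 promoters hold none. Of the 24 Hox promoters in RefSeq that could be matched, from 22 genes, 18 hold TAAT or its reverse complement ATTA, against 54.9% of all 32851 promoters. The letters TATAAA or TTTATA, a form of the TATA box, occur in 4 of the 24, those of Hoxa10, Hoxb8, Hoxd4 and Hoxd13, against 12.4% of all promoters. Hox promoters are rich in CG pairs, with a median of 12.5 in 250 bases against 6 over all promoters, and Hoxa13, listed at 0 in both libraries, has 35. A match of letters is a description and not evidence of binding.

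As facts of the whole series, Taf7l itself stood at 0.00734 FPKM in KO against 0.0222 FPKM in WT, too low to check the genotype labels. At the depths given next, 1 read weighs more FPKM in WT than in KO, so no loss of Taf7l is read from these values. The value of 1 read, recovered from low FPKM values, gave an estimated 78280000 mapped reads in KO and 25870000 in WT, so the KO library was 3.03 times as deep. All 11 brown fat markers were above 0 in both libraries, with Ucp1 at 1639 FPKM in KO against 3720 FPKM in WT. Their summed level was 6453 FPKM in KO against 14655 FPKM in WT. Of the 10 markers that reached 1 FPKM, 3 were higher in KO and 7 lower, 6 of these at least 1.5-fold (12.7% of all genes). All 20 skeletal muscle fibre markers were at least 3-fold higher in KO (2.05% of all genes). Their summed level was 2070 FPKM in KO against 118 FPKM in WT, with none at 0. The 6 genes listed for muscle satellite cells summed to 0.641 FPKM in KO against 0.122 FPKM in WT, with 3 of them at 0 in WT. Of these sums Chrna1, an acetylcholine receptor subunit not specific to satellite cells, held 0.195 FPKM in KO against 0.0769 FPKM in WT. None of the 6 reached 1 FPKM, and the WT library, where the zeros lie, was the shallower. The 10 fibroblast and fat progenitor markers summed to 486 FPKM in KO against 494 FPKM in WT. Of them, 3 were at least 1.5-fold higher in KO (16.5% of all genes) and 2 at least 1.5-fold lower (12.7% of all genes). The most different was Col1a1, a collagen of connective tissue and bone, with 23.0 FPKM in KO against 5.92 FPKM in WT. Muscle and fibroblasts of the trunk also express Hox genes, and in a pooled tissue more cells of a type cannot be told apart from more RNA per cell.

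The Hox profile of the interscapular pad was centred on paralog groups 4 to 8 in both genotypes. These 15 genes held 86.6% of all Hox FPKM in KO and 83.6% in WT. Groups 1 to 3, with 8 genes, held 12.1% in KO and 15.1% in WT, and groups 9 to 13, with 16 genes, held 1.23% in KO and 1.25% in WT. All 39 genes together summed to 60.2 FPKM in KO against 48.4 FPKM in WT. The Hox genes were of moderate to low level among the 12171 genes that reached 1 FPKM in 1 library or both, whose median was 6.19 FPKM in KO against 5.79 FPKM in WT.

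**Figure D1:**
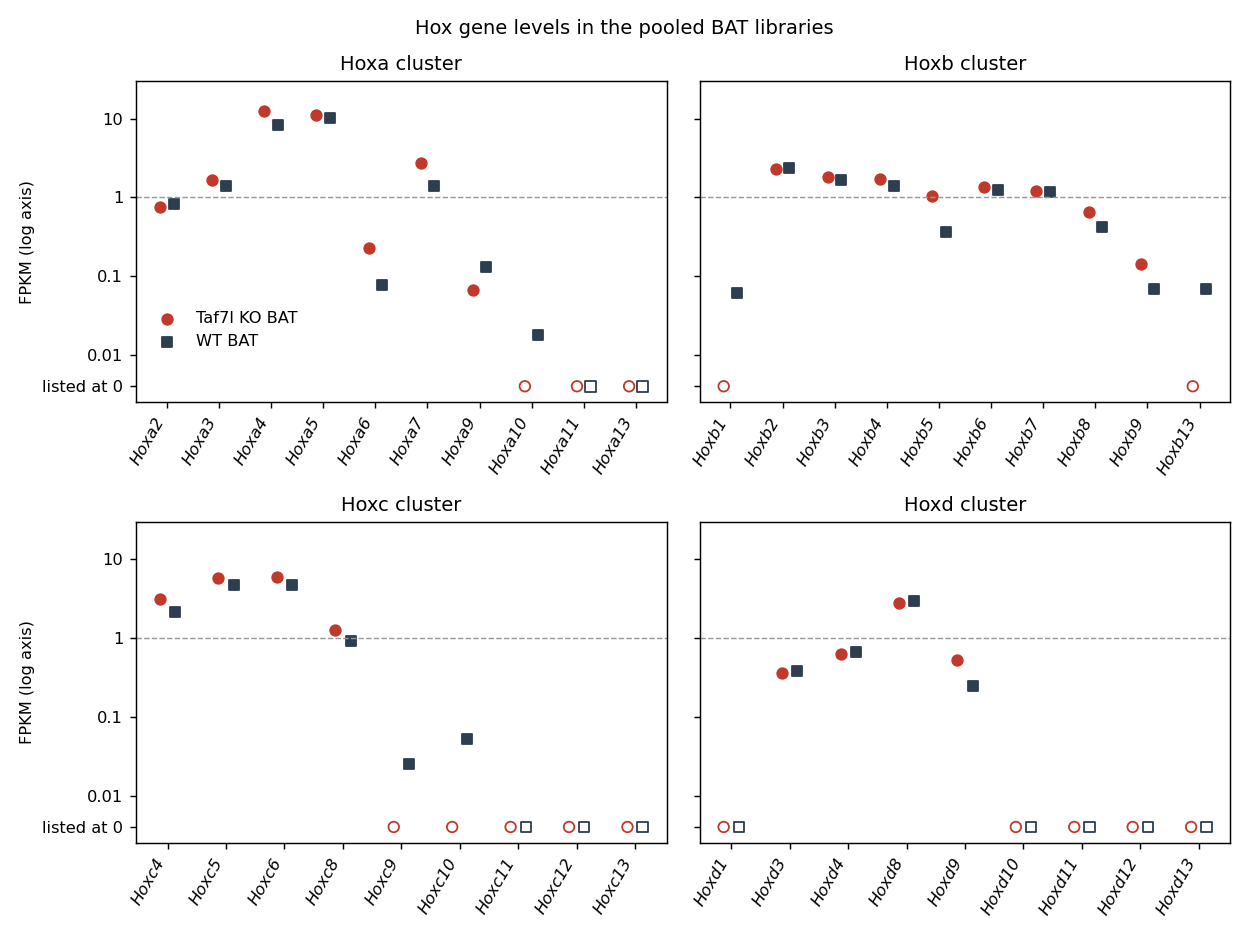
FPKM of 38 of the 39 Hox genes (log axis), in order of paralog group within each cluster, with circles for the Taf7l KO BAT library and squares for the WT BAT library, 1 pooled library each. Open symbols are genes listed at 0, and the dashed line is 1 FPKM. The highest values in both libraries are those of Hoxa4, Hoxa5, Hoxc5 and Hoxc6, and groups 10 to 13 lie at 0.0693 FPKM or less.

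Paralog groups 4 and 5 held the most RNA. Group 5 summed to 18.0 FPKM in KO against 15.1 FPKM in WT, and group 4 to 17.9 FPKM in KO against 12.4 FPKM in WT. Most of group 5 was Hoxa5, with 11.2 FPKM in KO against 10.1 FPKM in WT. Most of group 4 was Hoxa4, with 12.5 FPKM in KO against 8.19 FPKM in WT. The row of Hoxa3 spans both genes, and sums of single paralog groups without overlapping rows are not given. The sums declined through group 6 (7.59 FPKM in KO against 6.07 FPKM in WT) to group 9 (0.738 FPKM in KO against 0.468 FPKM in WT), with group 8 above group 7. Groups 11 and 12 were listed at 0 in both libraries.

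**Figure D2:**
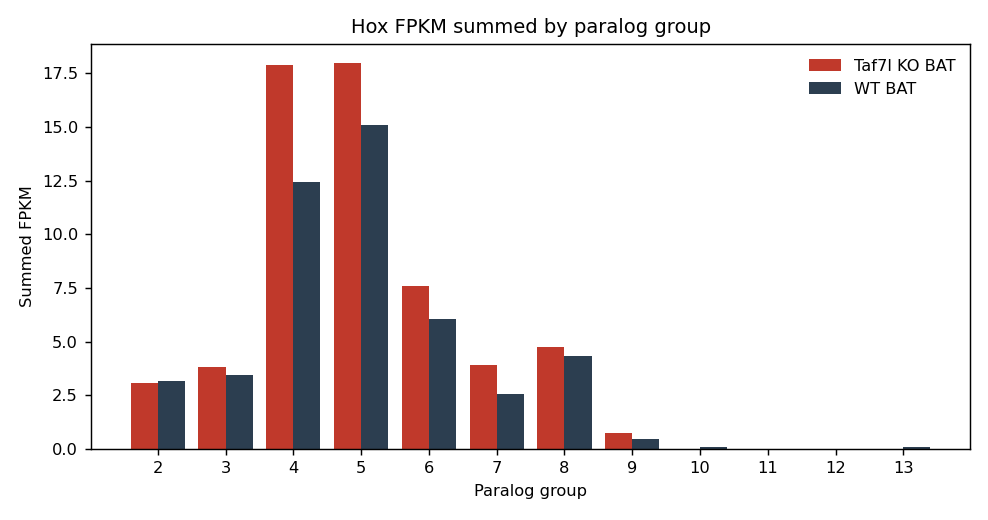
FPKM summed over the members of each Hox paralog group from 2 to 13, with the Taf7l KO BAT library left of the WT BAT library and no error bars, since each genotype has 1 pooled library. Both libraries peak at groups 4 and 5, at 17.9 and 18.0 FPKM in KO and at 12.4 and 15.1 FPKM in WT. Most of these sums is Hoxa4 and Hoxa5, both spanned by the row of Hoxa3.

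By cluster, Hoxa held 29.5 FPKM in KO against 22.8 FPKM in WT, a ratio of 1.29. Hoxc held 16.2 FPKM in KO against 12.6 FPKM in WT, also a ratio of 1.29. Hoxb held 10.2 FPKM in KO against 8.78 FPKM in WT, a ratio of 1.16, and Hoxd held 4.31 FPKM in KO against 4.29 FPKM in WT, a ratio of 1.00. The Hoxa sum came mostly from Hoxa4 and Hoxa5, whereas in the Hoxb cluster 6 genes, Hoxb2 to Hoxb7, each held 1.03 to 2.30 FPKM in KO.

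At 1 FPKM or more there were 15 Hox genes in KO and 13 in WT, and those 13 were among the 15 of KO. The 2 further genes were Hoxb5 and Hoxc8, which entered the comparison through KO alone and so had to be higher there. These 15 genes were compared as log2((KO + 0.1)/(WT + 0.1)), a scale that understates differences of low genes. None was at least 3-fold higher or lower in KO, against 2.05% of all 12171 genes compared for higher and 0.403% for lower. Of the 15, 3 were at least 1.5-fold higher (16.5% of all genes) and none was 1.5-fold lower (12.7% of all genes). The 3 genes, Hoxa4, Hoxa7 and Hoxb5, are a share close to that of all genes, and with a pseudocount of 1 FPKM Hoxa7 alone reached 1.5-fold. By any amount 13 of the 15 were higher in KO, against 50.8% of all genes, and the median log2 ratio was 0.26, against 0.01 over all genes and 0.06 over the 8196 genes whose higher library is at 1 to 14 FPKM, the range of these Hox genes.

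The ratio of a gene moved with its GC content. Over 8371 protein-coding genes the median log2 ratio was -0.36 in the lowest of 5 groups of GC content and 0.37 in the highest. The Hox genes compared had a median GC content of 53.9%, against 50.6% over all genes, with none in the 2 lowest groups. With each ratio centred on the median of its own GC group, an alternative chosen after seeing the data, 10 of the 15 were higher and 5 lower in KO, and the median was 0.06. Hoxa7 and Hoxb5 were still at least 1.5-fold higher, and Hoxa4 had a log2 ratio of 0.23. The part of depth in the Hox ratios was not tested.

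The interval in parentheses after a ratio is a 95% exact binomial (Clopper-Pearson) interval from the estimated reads. It holds counting error and not the difference between mice, pools or libraries, and it is of the ratio before any GC centring. Reads could be estimated for 36 of the 39 genes, all but Hoxa7, Hoxc6 and Hoxd3. Of 26 such intervals, 7 lay above 1, 18 held 1 and 1 lay below 1, that of Hoxb1 with no read in KO and about 3 in WT. Of the 13 intervals among the genes compared, 5 lay above 1 and 8 held 1. Of those 5, Hoxb5 and Hoxc8 had entered through KO alone. No such intervals are given for other genes, so these counts stand without a share of all genes, and nothing is read from them.

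**Figure D3:**
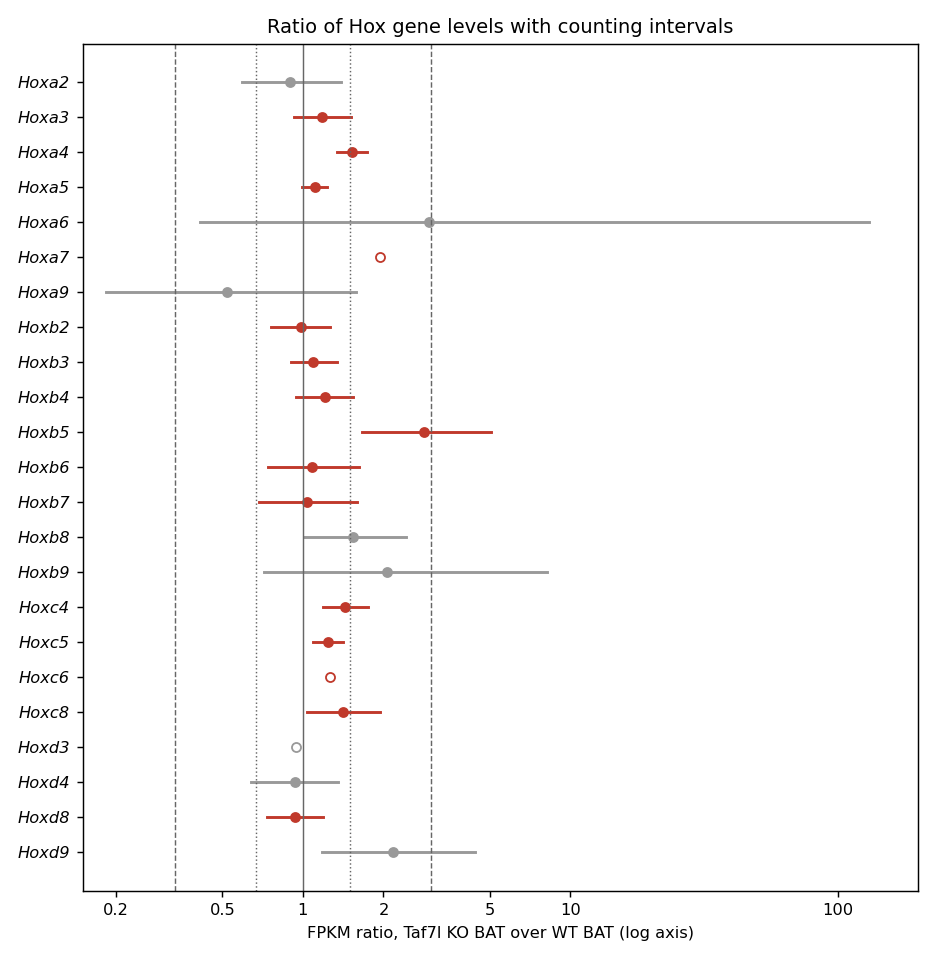
Ratio of FPKM in Taf7l KO BAT over WT BAT (log axis) for 23 Hox genes above 0 in both libraries, with lines for 95% exact binomial intervals on estimated reads. Red symbols are the 15 genes that reach 1 FPKM and grey symbols are lower genes, open symbols have no interval, and dotted and dashed lines mark 1.5-fold and 3-fold. Hoxb5 is the 1 gene at 1 FPKM or more whose interval, 1.67 to 5.05, lies wholly above 1.5, before any GC centring. After GC centring its log2 ratio moved from 1.28 to 1.07, and no interval is given for that ratio. Hoxb5 reached 1 FPKM in KO alone, so it had to be higher there.

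Among the genes of the head end, Hoxb2, which patterns the hindbrain, had 2.30 FPKM in KO against 2.35 FPKM in WT, with a ratio of 0.980 (0.763 to 1.26). Hoxa3, needed for the thymus and parathyroid, had 1.65 FPKM in KO against 1.397 FPKM in WT. Hoxb3 had 1.80 FPKM in KO against 1.65 FPKM in WT. The intervals of all 3 held 1. Hoxa2, which patterns the second pharyngeal arch, had 0.748 FPKM in KO against 0.833 FPKM in WT, with an interval of 0.593 to 1.39. Hoxd3 had 0.363 FPKM in KO against 0.385 FPKM in WT, Hoxb1 was listed at 0 in KO with 0.0616 FPKM in WT, and Hoxd1 was listed at 0 in both.

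Hoxa4 and Hoxa5 pattern the vertebrae of the neck and upper trunk, and Hoxa5 is also needed for the lung. Hoxa5 was the highest Hox gene in WT and the second highest in KO, with 11.2 FPKM in KO against 10.1 FPKM in WT, or about 1466 reads in KO and 438 in WT. Its ratio was 1.11 (0.993 to 1.23). Hoxa4 took the first place in KO, with 12.5 FPKM in KO against 8.19 FPKM in WT, a ratio of 1.52 (1.34 to 1.74). The row of Hoxa3 spans Hoxa4, Hoxa5 and Hoxa6, and transcripts without a symbol overlap Hoxa4, so reads of overlapping or antisense RNA could not be told apart, as no use of strand is stated.

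The Hoxc genes of groups 4 to 8 were all higher in KO, though Hoxc8 entered the comparison through KO alone. Hoxc6 had 6.02 FPKM in KO against 4.75 FPKM in WT, and Hoxc5 had 5.78 FPKM in KO against 4.66 FPKM in WT, with a ratio of 1.24 (1.09 to 1.41). Both are known from the forelimb and upper thorax. Hoxc4 had 3.14 FPKM in KO against 2.17 FPKM in WT, a ratio of 1.44 (1.18 to 1.75). Hoxc8, which patterns the thorax and in mice is known as a gene of white fat precursors, had 1.28 FPKM in KO against 0.906 FPKM in WT, a ratio of 1.41 (1.03 to 1.95). None of these 4 reached 1.5-fold, and after the GC centring their log2 ratios were 0.22 for Hoxc5, 0.25 for Hoxc6, 0.29 for Hoxc4 and 0.36 for Hoxc8.

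In the Hoxb cluster the genes of groups 4, 6 and 7 differed little. Hoxb4, which also acts in blood stem cells, had 1.69 FPKM in KO against 1.4 FPKM in WT. Hoxb6 had 1.34 FPKM in KO against 1.24 FPKM in WT, and Hoxb7 had 1.19 FPKM in KO against 1.16 FPKM in WT. The intervals of all 3 held 1. Hoxb5, between them on the chromosome and known in mice for setting the position of the shoulder girdle, was the exception, with 1.03 FPKM in KO against 0.364 FPKM in WT. This is about 136 reads in KO and 16 in WT, and the ratio of 2.83 (1.67 to 5.05) was the largest among the 15 genes compared. The log2 ratio of Hoxb5 was 1.28, and 0.57 with a pseudocount of 1 FPKM, below 1.5-fold. Hoxb5 reached 1 FPKM in KO alone, so it had to be higher there. Hoxb8, next to Hoxb7 toward the tail, was below 1 FPKM, with 0.657 FPKM in KO against 0.426 FPKM in WT and an interval of 1.01 to 2.43.

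Hoxa7 had 2.73 FPKM in KO against 1.402 FPKM in WT, a ratio of 1.95 and a log2 ratio of 0.91. Both of its rows were higher in KO, though rows of a gene can share reads and so are not independent. The main row of Hoxa7 had 2.06 FPKM in KO against 1.08 FPKM in WT, and the other 0.667 FPKM in KO against 0.321 FPKM in WT. Its neighbour Hoxa6 had about 9 reads in KO and 1 in WT, and the interval of its ratio, 0.412 to 130, was too wide for a direction. Within the Hoxd cluster Hoxd8 had 2.79 FPKM in KO against 3.00 FPKM in WT, and Hoxd4 had 0.620 FPKM in KO against 0.664 FPKM in WT. Hoxd8 and Hoxb2 were the only genes of the 15 that were lower in KO, and both intervals held 1.

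The skeletal muscle markers, 17.5 times as high in KO by their sum, were higher in the same library as Hoxa4, Hoxa7 and Hoxb5. The part of muscle RNA in these Hox ratios was not tested. The 6 endothelial markers summed to 122 FPKM in KO against 111 FPKM in WT, none of them 1.5-fold apart. The 5 macrophage markers found summed to 71.6 FPKM in KO against 69.9 FPKM in WT. Of the 5, 2 were at least 1.5-fold higher in KO (16.5% of all genes). The list of 5 Schwann cell markers summed to 59.4 FPKM in KO against 71.6 FPKM in WT, and that of 5 T and B cell markers to 3.71 FPKM in KO against 3.41 FPKM in WT. White fat markers, 7 with Hoxc8 and Hoxc9 among them, summed to 148 FPKM in KO against 162 FPKM in WT. The 6 general fat markers found summed to 14624 FPKM in KO against 23678 FPKM in WT, of which Fabp4 held 10713 FPKM in KO against 19657 FPKM in WT, and 3 of the 6 were higher in KO and 3 lower. The list of 5 cartilage and bone markers, 1 at 0 in KO and 2 at 0 in WT, summed to 0.296 FPKM in KO against 0.144 FPKM in WT.

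The tail end of the Hox pattern was nearly silent in both genotypes. Of the 16 genes in groups 9 to 13 the highest was Hoxd9, with 0.529 FPKM in KO against 0.243 FPKM in WT, or about 79 reads in KO and 12 in WT, and a ratio of 2.17 (1.18 to 4.39). Hoxb9 had 0.141 FPKM in KO against 0.0687 FPKM in WT, and Hoxa9 had 0.0676 FPKM in KO against 0.130 FPKM in WT, both with intervals that held 1. Hoxc9, a gene of white fat depots, had no read in KO and about 1 in WT, and Hoxc10, known in mice for restraining brown fat genes in subcutaneous white fat, had no read in KO and about 2 in WT.

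In all, 15 Hox genes were listed at 0 in KO and 10 in WT, and the same 10 were at 0 in both: Hoxa11, Hoxa13, Hoxc11, Hoxc12, Hoxc13, Hoxd1, Hoxd10, Hoxd11, Hoxd12 and Hoxd13. The 5 at 0 in KO alone were Hoxa10, Hoxb1, Hoxb13, Hoxc9 and Hoxc10, with about 9 reads among them in WT. None was at 0 in WT alone. Over the 12 genes of groups 10 to 13 there was no read in KO, although that library was deeper, and about 5 reads in WT. A count of 0 allows up to 3 reads a gene, so their RNA was not detectable at this depth and is not shown to be absent. None of 59 ribosomal protein genes was at 0 in either library.

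Counting in the genes below 1 FPKM was limited by reads. With a minimum of 0.1 FPKM in place of 1 FPKM, 24 Hox genes could be compared. Of these, 17 were higher and 7 lower in KO, against 8953 higher of the 17610 genes at that minimum. At least 1.5-fold higher were 5 Hox genes, against 17.1% of all genes at that minimum. The 2 added genes were Hoxa6 and Hoxd9. Hoxa6 and Hoxb9 reached 0.1 FPKM in KO alone and so had to be higher there. Hoxa9 reached it in WT alone and so had to be lower in KO. The levels of the Hox genes kept nearly 1 order in the libraries, with Spearman's rho of 0.968 across the 15 genes compared, which is across genes that share a library and a method, and so is given as a description only.

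The rows of a gene took similar shares in both genotypes in the cases that follow, apart from Hoxd3, whose longer row held 42.8% of its FPKM in KO and 36.0% in WT. The main row of Hoxa7 held 75.6% of its FPKM in KO and 77.1% in WT. Hoxc6, with a long row of 13168 bp and a short row of 2320 bp, had 49.8% of its FPKM in the long row in KO and 51.0% in WT. The long row of Hoxc4 held 47.2% in KO and 47.4% in WT, and that of Hoxb3 48.7% in KO and 48.8% in WT. The deposited FPKM rest on 1 iteration of the likelihood step that divides shared reads among overlapping rows. These shares may therefore follow how reads were divided, and nothing on transcript use is read from them.

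HOX proteins bind DNA with cofactors of the TALE class, the PBX proteins and the MEIS and PKNOX proteins. Of 9 cofactor genes listed, 8 were found and 5 were at 1 FPKM or more, 4 of them higher in KO (50.8% of all genes) and 3 by at least 1.5-fold (16.5% of all genes), with a median log2 ratio of 0.60 against 0.01 over all genes. Meis1 and Pbx3 reached 1 FPKM in KO alone, so the minimum itself favoured them as higher genes, and nothing is read from these counts. Meis1 had 1.69 FPKM in KO against 0.835 FPKM in WT, Pbx3 had 1.23 FPKM in KO against 0.775 FPKM in WT, and Pknox1 had 1.93 FPKM in KO against 1.24 FPKM in WT. Pbx2, the cofactor with the highest level, had 9.78 FPKM in KO against 8.91 FPKM in WT. With a pseudocount of 1 FPKM none of the 5 reached 1.5-fold.

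**Figure D4:**
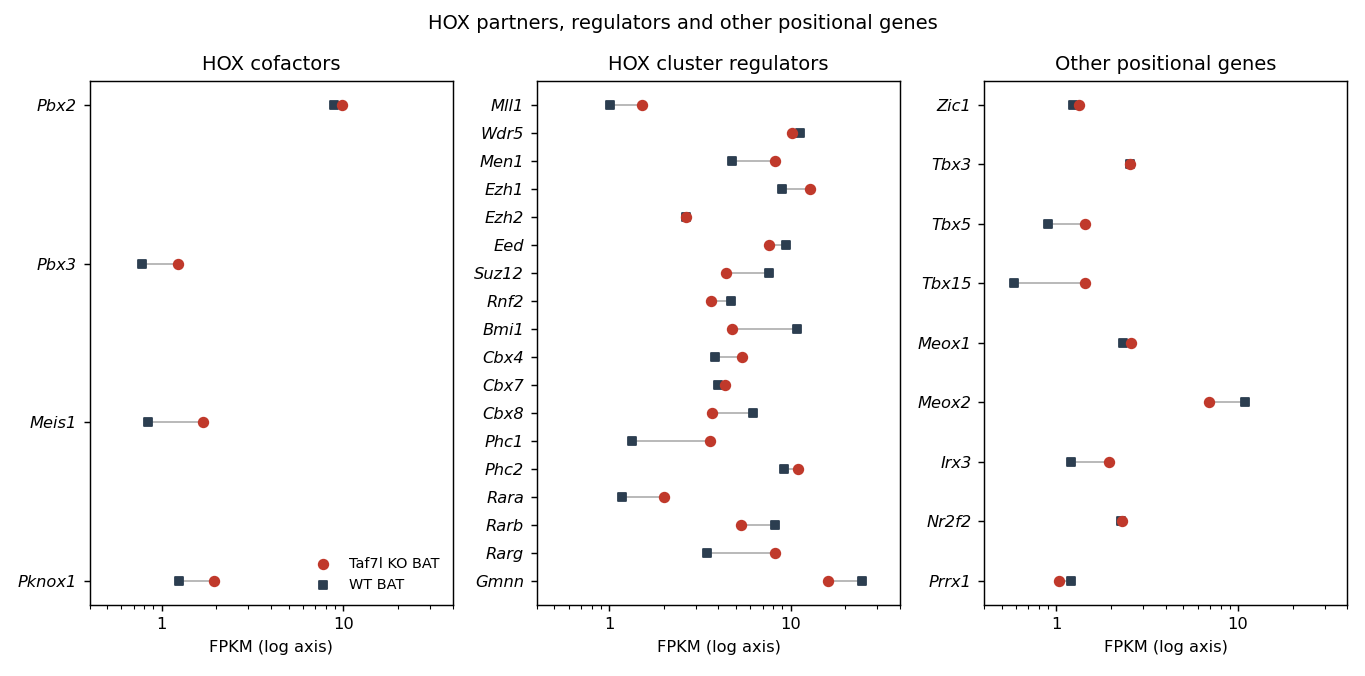
FPKM (log axis) of listed HOX cofactors, HOX cluster regulators and other positional genes that reach 1 FPKM in 1 library or both, with circles for the Taf7l KO BAT library, squares for the WT BAT library and a line joining the values of a gene. The regulators go both ways, with Bmi1 at 4.73 FPKM in KO against 10.8 FPKM in WT and Rarg at 8.23 FPKM in KO against 3.46 FPKM in WT.

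Hox clusters are held silent by Polycomb proteins, kept active by MLL complexes and induced in the embryo by retinoic acid and CDX factors. Of 31 names listed for such regulators 27 were found, and 18 were at 1 FPKM or more, of which 4 were at least 1.5-fold higher in KO (16.5% of all genes) and 5 at least 1.5-fold lower (12.7% of all genes), with a median log2 ratio of 0.06. Among Polycomb genes, Bmi1 had 4.73 FPKM in KO against 10.8 FPKM in WT, Suz12 had 4.40 FPKM in KO against 7.61 FPKM in WT, and Cbx8 had 3.71 FPKM in KO against 6.21 FPKM in WT. Phc1, of the same complex as Bmi1, went the other way, with 3.58 FPKM in KO against 1.34 FPKM in WT. The methyltransferase Ezh2 had 2.66 FPKM in both.
The retinoic acid receptors also divided, with Rarg at 8.23 FPKM in KO against 3.46 FPKM in WT, Rara at 2.01 FPKM in KO against 1.18 FPKM in WT, and Rarb at 5.34 FPKM in KO against 8.23 FPKM in WT. Men1, the menin of MLL complexes, had 8.24 FPKM in KO against 4.76 FPKM in WT. Gmnn, which encodes geminin and had the highest level of the list, had 16.0 FPKM in KO against 24.6 FPKM in WT. The next by the mean of both libraries were Ezh1, with 12.7 FPKM in KO against 8.98 FPKM in WT, and Wdr5, with 10.1 FPKM in KO against 11.3 FPKM in WT. The embryonic inducers Cdx1, Cdx2 and Cdx4 were listed at 0 in both libraries.

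Of 41 other genes of body position listed, 40 were found and 10 were at 1 FPKM or more, 3 of them at least 1.5-fold higher in KO (16.5% of all genes) and 1 at least 1.5-fold lower (12.7% of all genes), with a median log2 ratio of 0.07. Tbx15 and Tbx5 reached 1 FPKM in KO alone. Zic1, a marker of dorsal somite descendants and of interscapular brown fat, had 1.33 FPKM in KO against 1.24 FPKM in WT. Meox2, a somite factor and the highest of the list, had 6.87 FPKM in KO against 10.9 FPKM in WT. The 3 higher genes were Tbx15, with 1.44 FPKM in KO against 0.583 FPKM in WT, Tbx5, a forelimb factor, with 1.44 FPKM in KO against 0.900 FPKM in WT, and Irx3, with 1.95 FPKM in KO against 1.20 FPKM in WT. Tbx3 had 2.55 FPKM in KO against 2.54 FPKM in WT. Of the 40 genes found, 5 were listed at 0 in KO and 11 in WT. The KO library was 3.03 times as deep, so a 0 in WT allows a higher level, and nothing is read from these counts.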

How the data were processed

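Taf7l KO BAT and WT BAT were each measured by 1 mRNA-seq library, for which RNA of 6 mice was pooled. Per their methods the authors aligned 50 bp single-end reads with TopHat 1.4.0 and computed the FPKM they deposited by cufflinks 1.3.0, using 1 iteration of its likelihood step. They name mm10, but 0 of 39 Hox genes start within 1000 bp of their GRCm38 position in GENCODE M21, so positions here come from GENCODE and RefSeq and not from the table.

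The rows of each Hox gene, and of every other gene name, were added up, and genes that reached 1 FPKM in 1 library or both were set against each other with a pseudocount of 0.1 FPKM, by the 3-fold threshold of the study and by 1.5-fold, in Python 3.11.15 with numpy 2.4.6, pandas 2.3.3, matplotlib 3.10.9 and scipy 1.17.1. No test between genotypes was possible. Reads were estimated from FPKM, effective length (fragment length 200 bp, SD 80 bp) and the depth at which low values of 3955 genes with 1 row fall on whole numbers. Of low values, 76.6% in KO and 77.0% in WT came within 0.05 of a whole number. The KO estimate exceeds the reads stated in the labels, and its absolute size depends on the fragment length. For Hox rows the length of the nearest GENCODE transcript was adjusted by the difference in span, and 17 of 18 values under 40 reads came within 0.15 of a whole number. The calls were tested on simulated reads. These held counting error alone, without GC effects or differences between pools, so nothing is read from them here. Hox genes at 1 FPKM or more are named with both values, and those at 0 by name. Of the other lists, the 3 genes with the highest mean of both libraries and those 1.5-fold apart are named, and some further list genes were named after their values were seen. The members and gene lists were chosen with earlier results of these data known. Some genes that this rule takes in enter the counts and sums but are not reported here singly. No protein sequences were used here.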

Additional observations from a re-analysis of the deposited data

How the results depend on the processing

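No paired analysis was possible because each genotype has a single pooled library, and no library could be left out. The count of 0 Hox genes 3-fold higher or lower held under every alternative tried. The count of 3 that were 1.5-fold higher became 1 with a pseudocount of 1 FPKM (Hoxa7) and 5 with a minimum of 0.1 FPKM or with no filter. With no filter 3 were 1.5-fold lower, Hoxb1, Hoxb13 and Hoxc10, each listed at 0 in KO on at most 3 reads in WT. The median log2 ratio of the Hox genes stayed above 0 throughout, with its lowest value of 0.06 after centring on GC content, an alternative chosen after seeing the data. With rows that overlap another Hox gene left out, which removes Hoxa3, Hoxa4 and Hoxa5 from the 15, groups 1 to 3 held 15.7% of Hox FPKM in KO and 20.1% in WT, groups 4 to 8 82.1% in KO and 77.7% in WT, and groups 9 to 13 2.19% in KO and 2.20% in WT. With a pseudocount of 1 FPKM 0 cofactors and 1 other positional gene were 1.5-fold higher. With a minimum of 0.1 FPKM 8 other positional genes were 1.5-fold higher and 1 was 3-fold higher. The other 95 values moved by less than 1.5 times or within counting error, with a median log2 ratio read as a fold. On the log2 scale the Hox median fell from 0.26 to 0.17 with a pseudocount of 1 FPKM and to 0.12 with no filter. The cofactor median fell from 0.60 to 0.33 with a pseudocount of 1 FPKM. Depth limits the genes below 0.1 FPKM, which rest on at most 11 reads in KO and 4 in WT.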

Other observations

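Within the spans of the 4 Hox clusters the table also holds 23 rows with other names, of which 13 were at 0 in both libraries, 7 were above 0 and below 1 FPKM, and 3 were at 1 FPKM or more. The 3 were singled out after their values were seen. A row of 1172 bp inside the span of Hoxa3 had 4.43 FPKM in KO against 5.87 FPKM in WT, a log2 ratio of -0.40. A row of 17804 bp that overlaps Hoxa3 and Hoxa4 had 2.88 FPKM in KO against 4.46 FPKM in WT, a log2 ratio of -0.61, and so was lower in KO where Hoxa4 itself was higher. A row of 110 bp between Hoxb5 and Hoxb4 was listed at 0 in KO and had 14.4 FPKM in WT. It is shorter than the fragment length assumed here, so its FPKM rests on a very small effective length and no fold is given.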
